A study of Mus musculus with 9 samples.

Results

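Havcr1, Lcn2, Krt8, Krt18, Clu, Spp1, Vcam1, Sox9 and Cd44 are used in kidney research as markers of tubular injury and repair, and their messenger RNA was followed here in mouse kidney. They were chosen by name, and all 9 were found among the 54532 genes measured. Of these 9 genes, 6 (Lcn2, Krt8, Krt18, Clu, Spp1 and Vcam1) reached 1 FPKM (reads relative to gene length and to a constant that the authors set for each library) in at least 3 libraries, a level that 12642 genes reached and that decided which genes were tested. Havcr1, Sox9 and Cd44 did not reach that level. All mice were c57BL/6j males, 4 months old, and each of the 3 groups had 3 libraries. Treated unloaded mice (PBA) were hindlimb-unloaded and received 4-phenylbutyric acid, a chemical chaperone, injected into the peritoneum at a daily 100 mg per kg. Unloaded mice (HU) received vehicle, and ground controls (GC) were neither unloaded nor treated, so that HU against GC holds unloading and vehicle together. In this model, which stands for disuse and microgravity, the hind limbs bear no weight. The study asked how endoplasmic reticulum stress relates to kidney damage in unloaded mice and whether 4-PBA changes it. The labels do not say whether each library came from a separate mouse, so the p-values measure the spread between these libraries only.

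When tubule cells are damaged, the surviving cells lose part of their differentiated program, spread over the bare basement membrane and switch on a set of genes that healthy tubules express at low levels. Some products are secreted into urine or interstitium, such as neutrophil gelatinase-associated lipocalin (Lcn2), clusterin (Clu) and osteopontin (Spp1). Others are surface proteins, such as kidney injury molecule-1 (Havcr1), the hyaluronan receptor CD44 and the leukocyte adhesion molecule VCAM-1. Keratin 8 and keratin 18 (Krt8, Krt18) pair into the intermediate filaments of simple epithelia, and Sox9 is a transcription factor of regenerating tubule cells. Several of them are also made in uninjured kidney, osteopontin and clusterin in tubule cells and VCAM-1 in endothelium. In whole-kidney RNA, fewer cells of a type and less RNA per cell cannot be told apart.

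The libraries held 7595631 to 15141784 reads assigned to genes. Transcripts of the mitochondrial genome took 15.2%, 13.7% and 67.1% of them in PBA1 to PBA3, 68.7%, 79.3% and 63.7% in HU1 to HU3, and 18.9%, 14.8% and 49.7% in GC1 to GC3. The labels name no batch. PBA3 stood with the HU libraries in this share, so results of the members that rest on PBA3 are given with and without it. The markers of proximal tubule cells, 21 genes, summed to 1212 to 3577 FPKM in PBA, 697 to 1217 FPKM in HU and 3160 to 3773 FPKM in GC, so that markers of the labelled tissue were present in every library.

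The secreted products spanned the widest range of levels. Spp1 (ENSMUSG00000029304, mm10 chromosome 5, 104435118 to 104441050, plus strand) encodes osteopontin, an integrin ligand of urine and matrix. It had 296, 343 and 196 FPKM in PBA1 to PBA3, 163, 127 and 67.0 FPKM in HU1 to HU3, and 223, 355 and 208 FPKM in GC1 to GC3. All 3 HU libraries lay below every library of the other groups. At its GC mean of 262 FPKM, Spp1 stood above 99.2% of the genes tested. Clu (ENSMUSG00000022037, chromosome 14, 65968483 to 65981547, plus strand) encodes clusterin, a secreted chaperone. It had 51.3, 58.0 and 12.6 FPKM in PBA1 to PBA3, 14.8, 4.95 and 7.03 FPKM in HU1 to HU3, and 50.3, 62.5 and 34.7 FPKM in GC1 to GC3. HU lay below GC throughout, and PBA3 lay among the HU libraries while PBA1 and PBA2 lay among the GC libraries. Lcn2 (ENSMUSG00000026822, chromosome 2, 32384633 to 32388252, minus strand) encodes an iron-siderophore carrier that appears early in urine after injury. It was low everywhere, at 1.18, 0.549 and 2.08 FPKM in the PBA libraries, 1.28, 2.33 and 0.899 FPKM in the HU libraries and 0.431, 1.50 and 0.731 FPKM in the GC libraries. These values came from 16 to 94 reads per library, and the 3 groups overlapped.

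The keratins, which make up the filament network of the tubular epithelium, were found in every library. Krt8 (ENSMUSG00000049382, chromosome 15, 101996698 to 102004482, minus strand) had 45.8, 44.8 and 37.8 FPKM in PBA1 to PBA3, 29.3, 26.4 and 21.6 FPKM in HU1 to HU3, and 37.1, 35.9 and 31.1 FPKM in GC1 to GC3. The 3 groups did not overlap, with PBA highest and HU lowest. Krt18 (ENSMUSG00000023043, chromosome 15, 102028180 to 102032027, plus strand) had 31.2, 20.6 and 59.3 FPKM in the PBA libraries, 15.6, 24.1 and 14.1 FPKM in the HU libraries and 10.4, 17.7 and 13.3 FPKM in the GC libraries. Here the order was another one, with PBA above GC and with HU overlapping both. The ratio of Krt8 to Krt18 was 1.47, 2.17 and 0.637 in PBA1 to PBA3, 1.87, 1.09 and 1.54 in HU1 to HU3, and 3.57, 2.03 and 2.33 in GC1 to GC3. In each HU library Krt8 was thus lower relative to Krt18 than in any GC library, and PBA3 was the one library with less Krt8 than Krt18. A pseudogene of Krt8 (Krt8-ps) stood at 0 to 0.966 FPKM, so few reads were assigned to that copy.

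Krt8 and Krt18 lie head to head, 23697 bases apart, and their products pair, yet on the deposited scale their mean levels ran in different orders over the groups. The order of HU and GC for Krt18 rested on overlapping libraries. With values scaled by total reads, Krt18 was lower in HU than in GC, as Krt8 was. For their position and pairing, the sequence before each start is shown, together with that of Spp1, the most abundant member. The sequences are RefSeq promoter windows (build GRCm38.p6, the assembly also called mm10), limited to the bases before the gene as the deposited table places it, and run 5′ to 3′ on the strand of the gene. Capitals mark matches to a searched motif, and the lines stand for chr15:102004483-102004592 (minus strand), chr15:102027966-102028179 (plus strand) and chr5:104434861-104435110 (plus strand).
Krt8: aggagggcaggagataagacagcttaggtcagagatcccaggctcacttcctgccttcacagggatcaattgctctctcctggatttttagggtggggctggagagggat
Krt18: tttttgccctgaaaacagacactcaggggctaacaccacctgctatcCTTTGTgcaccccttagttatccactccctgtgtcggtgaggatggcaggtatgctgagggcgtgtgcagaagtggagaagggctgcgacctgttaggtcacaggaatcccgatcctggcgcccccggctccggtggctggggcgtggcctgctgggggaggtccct
Spp1: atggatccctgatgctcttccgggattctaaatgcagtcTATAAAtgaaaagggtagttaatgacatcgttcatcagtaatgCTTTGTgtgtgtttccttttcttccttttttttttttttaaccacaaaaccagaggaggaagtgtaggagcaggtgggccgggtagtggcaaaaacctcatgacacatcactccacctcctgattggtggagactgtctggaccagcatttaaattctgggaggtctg

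In the full windows of 250 bases, 6 motifs were searched on both strands. The motif of Sox factors (ACAAAG) matched on the minus strand, where it reads CTTTGT, 203 bases before the RefSeq start of Krt18 and 168 bases before that of Spp1, and 16.5% of 32851 windows of all genes hold it. The TATA motif (TATAAA) matched 211 bases before the start of Spp1 and is held by 12.4% of all windows. The motifs of AP-1 (TGANTCA, 6.75% of all windows), NF-kappaB (1.41%), STAT (TTCNNNGAA, 7.02%) and TEAD (GGAATG, 12.6%) matched in no window of a member. No match overlapped another. RefSeq windows were matched for 6 of the 9 genes, 9 windows in all because Spp1 and Havcr1 have several starts, and 3 of the 9 windows held a match, the third being a Sox match 243 bases before a second start of Spp1. Clu, Vcam1 and Sox9 were not matched. A match describes letters and not a binding site.

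Among the surface proteins, Vcam1 (ENSMUSG00000027962, chromosome 3, 116109949 to 116129688, minus strand), which binds integrin-bearing leukocytes, had 1.37, 1.00 and 5.80 FPKM in PBA1 to PBA3. It had 4.68, 5.69 and 4.44 FPKM in HU1 to HU3, and 0.684, 0.843 and 1.58 FPKM in GC1 to GC3. All HU libraries and PBA3 lay above the other 5. Havcr1 (ENSMUSG00000040405, chromosome 11, 46735080 to 46779578, plus strand), a phagocytic receptor that tubule cells put on their surface after injury, had 0.884, 0.509 and 0 FPKM in PBA1 to PBA3, 0, 2.64 and 0.893 FPKM in HU1 to HU3, and 0.756, 0.379 and 0.435 FPKM in GC1 to GC3. These values stand for 0 to 51 reads, and the highest of them, in HU2, rests on 19 reads. In the libraries at 0 reads, PBA3 and HU1, a floor of 3 reads would be 0.208 FPKM and 0.217 FPKM. Cd44 (ENSMUSG00000005087, chromosome 2, 102811141 to 102901665, minus strand) had 0.372, 0.328 and 0.615 FPKM in the PBA libraries, 0.989, 0.285 and 0 FPKM in the HU libraries and 0.167, 0.345 and 0.350 FPKM in the GC libraries, from 0 to 63 reads. For Havcr1 and Cd44 the HU libraries spanned both ends of the range.

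Sox9 (ENSMUSG00000000567, chromosome 11, 112782224 to 112787760, plus strand), the transcription factor, had 0.174, 0.0105 and 2.44 FPKM in PBA1 to PBA3. It had 2.71, 0 and 0.749 FPKM in HU1 to HU3, and 0.112, 0.101 and 0 FPKM in GC1 to GC3. The 3 highest values were those of HU1, HU3 and PBA3 and rested on 67, 21 and 63 reads, while HU2, the shallowest library, had none. At 0 reads, a floor of 3 reads in HU2 would be 0.233 FPKM, above the values of all GC libraries. Such floors and the read numbers cover counting error only.

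**Figure D1:**
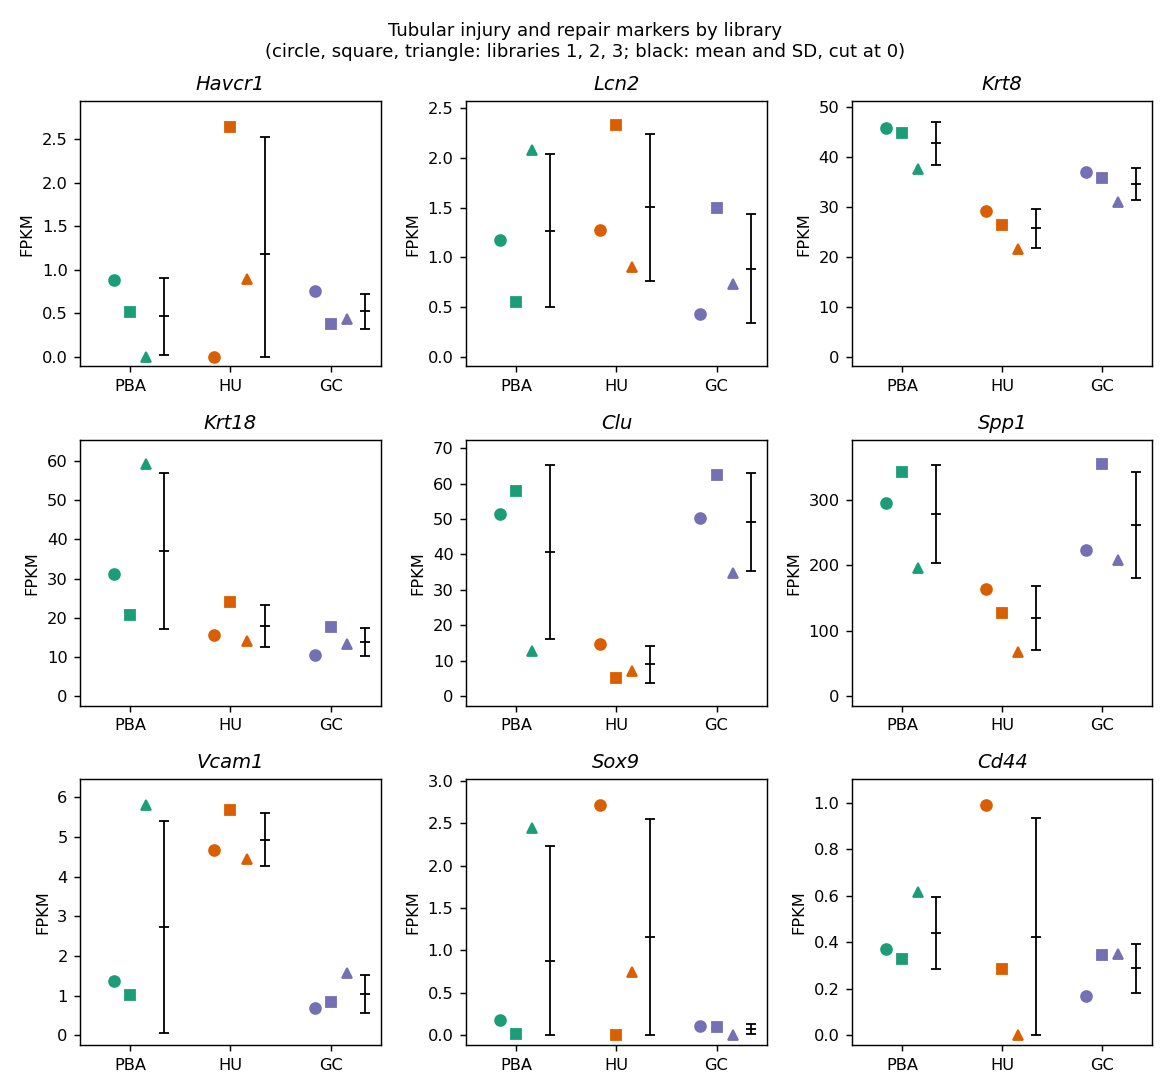
FPKM of each of the 9 genes (vertical axes, each with its own scale) in the PBA, HU and GC libraries; symbols are single libraries and black marks are the mean and SD of 3 libraries, cut at 0. Clu and Spp1 are low in the HU libraries, Vcam1 is high in the HU libraries and in PBA3, and Havcr1, Lcn2, Sox9 and Cd44 stay at or under 2.71 FPKM.

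In unloaded mice, 2 of the 6 tested members differed from ground controls, in opposite directions. Clu fell to 8.93 ± 5.20 FPKM in HU, against 49.2 ± 13.9 FPKM in GC (SD, n = 3 each). Vcam1 rose to 4.94 ± 0.662 FPKM in HU, against 1.03 ± 0.476 FPKM in GC (SD, n = 3 each). Over all 12642 genes tested, 10.2% passed the threshold, a limma Benjamini-Hochberg adjusted p under 0.05, and 5.32% passed as higher and 4.90% as lower. The difference in log2(FPKM + 1) was -2.42 ± 0.57 for Clu (SE; limma adjusted p = 0.0310) and 1.56 ± 0.43 for Vcam1 (SE; limma adjusted p = 0.0494). A difference on this scale understates the change of low genes such as Vcam1.

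The other 4 tested members did not pass. Spp1 averaged 119 ± 48.6 FPKM in HU and 262 ± 81.0 FPKM in GC (SD, n = 3 each), a difference of -1.18 ± 0.41 in log2 (SE; adjusted p = 0.0917, limma). Krt8 averaged 25.8 ± 3.86 FPKM in HU and 34.7 ± 3.17 FPKM in GC (SD, n = 3 each), a log2 difference of -0.42 with a 95% confidence interval from -0.95 to 0.11 (limma adjusted p = 0.257). Both were lower in HU without overlap of the libraries. In all, 4 of the 6 tested members had groups that did not overlap (Clu, Spp1 and Krt8 lower, Vcam1 higher), where 37.7% of all genes tested did. Krt18 and Lcn2 had log2 differences of 0.35 and 0.41 (limma adjusted p = 0.591 and 0.479), and their libraries overlapped.

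Havcr1, Sox9 and Cd44 did not pass the filter on low values on the deposited scale and were fitted without it. Their log2 differences, HU minus GC, were then 0.33 (95% confidence interval -0.80 to 1.46), 0.80 (-0.55 to 2.15) and 0.09 (-0.55 to 0.73). At 0 to 67 reads per library, no difference was detected in these 3 genes, and the intervals of Havcr1 and Sox9 reach from below 0 to above 1. The mean of Sox9 was 1.15 ± 1.40 FPKM in HU and 0.0709 ± 0.0617 FPKM in GC (SD, n = 3 each), a ratio of 16.3. Its HU libraries spread from 0 to 2.71 FPKM. Scaling by total reads lets Havcr1 pass the filter and turned its difference to -0.14 (limma adjusted p = 0.803). Scaling by non-mitochondrial reads lets Havcr1 and Sox9 pass, with differences of 0.44 and 1.26 (limma adjusted p = 0.689 and 0.331). The median difference of the 6 tested members was -0.04, beside -0.03 over all genes.

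Both calls were lost when certain single libraries were left out and when the mitochondrial share was a covariate. Clu did not pass without HU2, HU3, GC1, GC2 or GC3 (limma adjusted p = 0.0748, 0.0787, 0.114, 0.0989 and 0.0817), with differences from -2.65 to -2.12. When 1 library was left out at a time, Vcam1 passed without PBA2 and without PBA3 (limma adjusted p = 0.0445 and 0.00537) and did not pass in the other 7 fits (0.0652 to 0.170). With both PBA3 and GC3 left out, Clu and Vcam1 passed (limma adjusted p = 0.0115 and 0.00972). Scaling by total reads, which moved the median of all genes to -0.78, gave Vcam1 a difference of 0.84 (limma adjusted p = 0.111) and turned the differences of Krt18 and Lcn2 to -0.66 and -0.17. Relative to that median, these 3 differences were 1.62, 0.13 and 0.61. Under that scaling Spp1 passed as lower in HU, at -2.24 (limma adjusted p = 0.0484), so that Clu and Spp1 were the 2 members called and both were lower. With the mitochondrial share of each library as a covariate, the difference was -0.96 for Clu and 0.42 for Vcam1 (limma adjusted p = 0.275 and 0.480). This share was 63.7% to 79.3% in HU and 14.8% to 49.7% in GC, without overlap, so the group and the share cannot be told apart in this comparison. The share of non-mitochondrial reads assigned to pseudogenes moved with it, at 3.73% to 7.54% in HU and 1.16% to 1.76% in GC. It was 4.83% in PBA3, against 0.955% and 1.18% in PBA1 and PBA2, so the HU libraries and PBA3 stood above the other 5 as they did for Vcam1. The part of this share in the differences of the members was not tested.

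**Figure D2:**
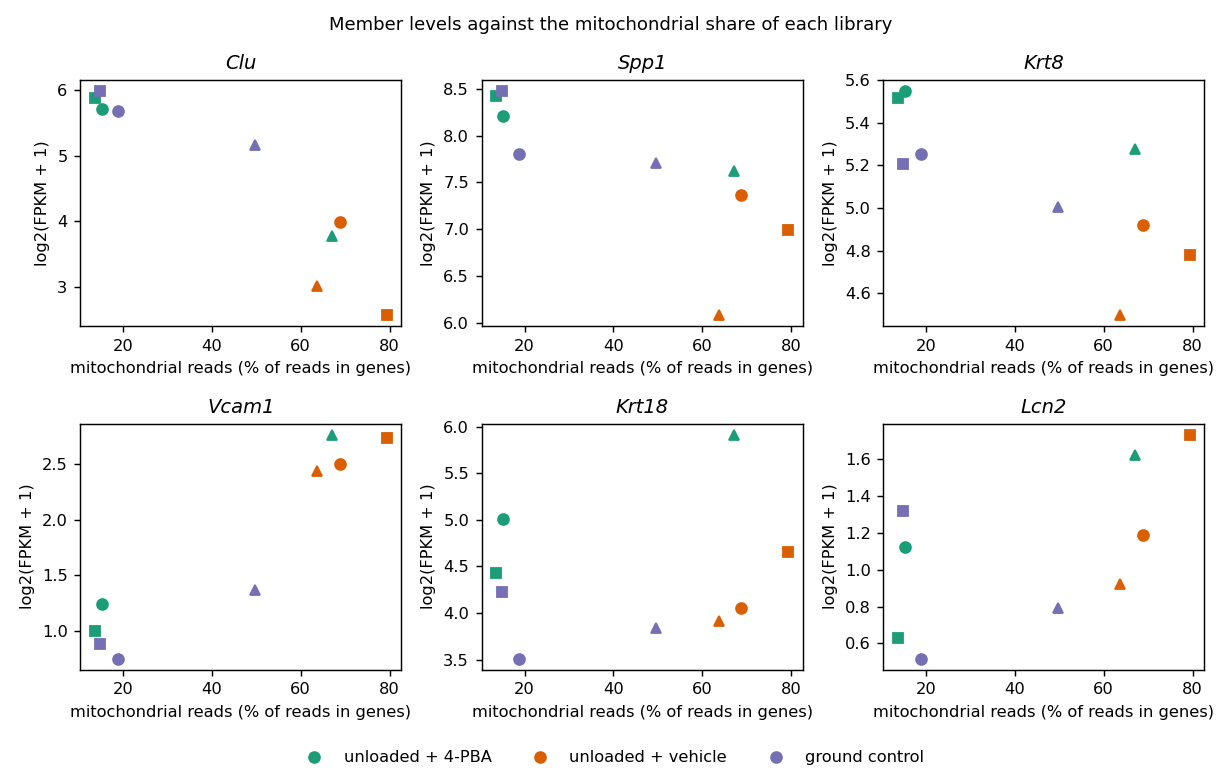
log2(FPKM + 1) of the 6 tested members (vertical axes) against the percent of reads in genes that came from the mitochondrial genome (horizontal axes), with 1 symbol per library and colours for the PBA, HU and GC groups. PBA3, at 67.1%, lies within or just outside the range of the HU libraries for Clu, Vcam1 and Lcn2 and above that range for Krt8, Krt18 and Spp1.

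The plot of member levels against the mitochondrial share shows where PBA3 stood for each member. For Clu, Vcam1 and Lcn2, PBA3 lay within or just outside the range of the HU libraries. Clu had 12.6 FPKM in PBA3, against 4.95 to 14.8 FPKM in HU, and Vcam1 had 5.80 FPKM in PBA3, against 4.44 to 5.69 FPKM in HU. Lcn2, whose groups overlap, had 2.08 FPKM in PBA3, against 0.899 to 2.33 FPKM in HU. Krt8, at 37.8 FPKM in PBA3, and Spp1, at 196 FPKM, lay above all HU libraries, Spp1 by a gap to HU1 (163 FPKM) that was smaller than that to PBA1 (296 FPKM), and Krt18, at 59.3 FPKM, lay above all other libraries. GC3, at 49.7% mitochondrial reads, had the lowest Clu, Krt8 and Spp1 and the highest Vcam1 of the GC libraries.

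The comparison of treated with vehicle-treated unloaded mice asked whether 4-PBA changed these genes under unloading, and it shares the HU libraries with the comparison above. None of the 6 tested members passed the threshold, which 2.69% of all genes tested passed, and limma-voom on recovered reads called none of them either. At an unadjusted p under 0.05, 4 of the 6 differed (Clu, Spp1, Krt8 and Krt18), each higher in PBA, where 20.1% of all genes tested did. Clu averaged 40.7 ± 24.5 FPKM in PBA and 8.93 ± 5.20 FPKM in HU (SD, n = 3 each), a difference of 1.93 ± 0.57 in log2 (SE; adjusted p = 0.110, limma). Spp1 averaged 278 ± 75.0 FPKM in PBA and 119 ± 48.6 FPKM in HU (SD, n = 3 each), a difference of 1.27 ± 0.41 in log2 (SE; adjusted p = 0.135, limma). Krt8 averaged 42.8 ± 4.38 FPKM in PBA and 25.8 ± 3.86 FPKM in HU (SD, n = 3 each), a difference of 0.72 ± 0.24 in log2 (SE; adjusted p = 0.141, limma). Spp1 and Krt8 were the 2 members whose libraries did not overlap, beside 20.3% of all genes tested.

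Krt18, the partner of Krt8, averaged 37.0 ± 20.0 FPKM in PBA and 17.9 ± 5.43 FPKM in HU (SD, n = 3 each), a difference of 0.91 ± 0.40 in log2 (SE; adjusted p = 0.236, limma). Without PBA3, the difference was 0.52 (limma adjusted p = 0.358). Vcam1 averaged 2.73 ± 2.67 FPKM in PBA and 4.94 ± 0.662 FPKM in HU (SD, n = 3 each), a difference of -0.89 ± 0.43 in log2 (SE; adjusted p = 0.282, limma), and Lcn2 had a log2 difference of -0.16 (limma adjusted p = 0.841). Without the filter, the log2 differences of Havcr1, Sox9 and Cd44 were -0.43 (95% confidence interval -1.55 to 0.70), -0.22 (-1.57 to 1.13) and 0.07 (-0.57 to 0.71). The median difference of the 6 tested members was 0.81, beside 0.02 over all genes.

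The calls in this comparison depended on which library was left out. Over all genes, 1320 passed without PBA3 in place of 340, but 76 without PBA1 and 36 without PBA2. Without PBA3, Clu was higher in PBA by a log2 difference of 2.61 and Vcam1 lower, at -1.44 (limma adjusted p = 0.00808 and 0.0167). Spp1 stood at 1.51 and Krt8 at 0.80 without PBA3 (limma adjusted p = 0.0511 and 0.0628). PBA1 and PBA2 had 15.2% and 13.7% mitochondrial reads, and all HU libraries at least 63.7%, so that leaving out PBA3 also leaves no overlap between the groups in that share. With the share as a covariate, the difference was 0.61 for Clu, 0.14 for Vcam1, whose sign turned, 0.84 for Spp1 and 0.54 for Krt8 (limma adjusted p = 0.476, 0.832, 0.358 and 0.288).

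Treated unloaded mice were then set against ground controls, which asks how far the treated kidneys stood from untreated ones; its libraries are those of the comparisons above. No gene passed the threshold, 0.00% of the 12642 tested, nor did any with limma-voom, and 165 genes or 1.31% had an unadjusted p under 0.05. Krt18 was the only tested member among these 165 genes, with 37.0 ± 20.0 FPKM in PBA and 13.8 ± 3.65 FPKM in GC (SD, n = 3 each) and a difference of 1.26 ± 0.40 in log2 (SE; adjusted p = 1, limma). Without PBA3, that difference was 0.86 (limma adjusted p = 1). All 3 PBA libraries, at 20.6 to 59.3 FPKM, lay above all GC libraries, at 10.4 to 17.7 FPKM. Krt8 was the other member without overlap, by a narrow gap, with 37.8 FPKM in the lowest PBA library against 37.1 FPKM in the highest GC library, and 8.00% of all genes tested did not overlap. The log2 differences were -0.49 for Clu (95% confidence interval -1.77 to 0.80), 0.09 for Spp1 (-0.83 to 1.01), 0.67 for Vcam1 (-0.30 to 1.64), 0.25 for Lcn2 (-0.56 to 1.06) and 0.29 for Krt8 (-0.24 to 0.82). These intervals are too wide to show that the levels were alike. Without PBA3, the differences of Vcam1 and Clu were 0.12 and 0.19 (limma adjusted p = 1 for both). The median of the 6 members was 0.27, beside -0.0039 over all genes.

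**Figure D3:**
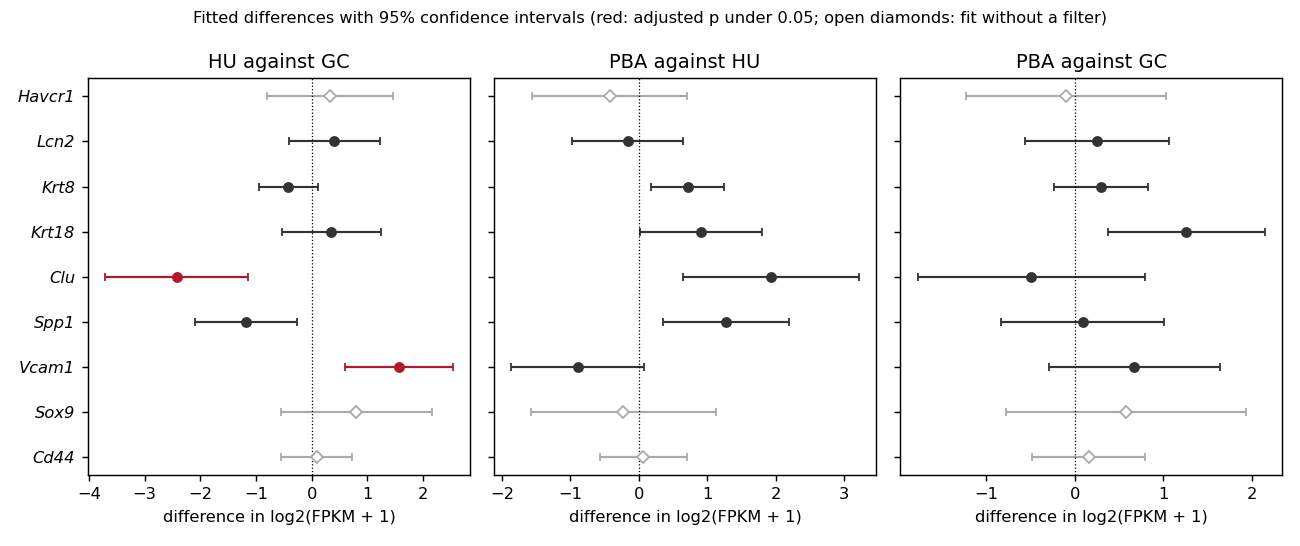
Fitted difference in log2(FPKM + 1) (horizontal axes) of each member in the 3 comparisons, with 95% confidence intervals from limma; filled circles are tested members, open diamonds are members fitted without the filter, and red marks an adjusted p under 0.05. Red appears for Clu at -2.42 and Vcam1 at 1.56 in HU against GC and nowhere else.

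Other genes known from injured tubules were read beside the members. Of 35 such genes 31 were tested, and 4 rose in HU against GC while none fell, where 5.32% of all genes tested rose and 4.90% fell. The direction of these counts depended on the scaling, with 0 higher and 3 lower under total reads and 3 higher and 1 lower with TMM factors, a normalization by the bulk of genes. The count was 0 without GC1, without GC2 and without GC3, 1 without HU2, 2 without HU3 and 8 without PBA3. Cp, which encodes the copper-carrying ferroxidase ceruloplasmin, had 21.9 ± 3.50 FPKM in HU and 3.17 ± 0.293 FPKM in GC (SD, n = 3 each), a log2 difference of 2.45 (limma adjusted p = 0.0268). Timp2, a metalloproteinase inhibitor, Cd24a, a small surface glycoprotein, and Igfbp7, a secreted growth factor binding protein, had log2 differences of 2.07, 1.76 and 1.66 (limma adjusted p = 0.0420, 0.0164 and 0.0297). Timp2 and Igfbp7 are known as urinary markers of kidney stress in patients. The median difference of this list was 0.34, beside -0.04 for the members and -0.03 for all genes. None of the 31 passed in PBA against HU or in PBA against GC, where 2.69% and 0.00% of all genes tested did. In these comparisons 9 and 3 of the 31 had an unadjusted limma p under 0.05, beside 20.1% and 1.31% of all genes tested. Limma-voom called 2 of the 31, both lower, in PBA against HU, beside 3.55% of all genes tested. When 1 library was left out, the count in PBA against HU was 0 to 4. Cp had 7.48 ± 8.36 FPKM in PBA (SD, n = 3), with 17.1 FPKM in its highest library.

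Inflammatory and NF-kappaB target genes, a group that includes regulators of Vcam1, were mostly at low levels. Of 16 genes 10 were tested, and 1 rose in HU against GC, beside 10.2% of all genes that passed in either direction. This was Cxcl16, a chemokine of injured tubules, with 16.8 ± 3.64 FPKM in HU and 7.33 ± 0.902 FPKM in GC (SD, n = 3 each), a log2 difference of 1.08 (limma adjusted p = 0.0333). Scaled by total reads, it had a difference of 0.10 (limma adjusted p = 0.873), and when 1 library was left out the list had 0 to 3 calls, with 0 without PBA1, HU2, HU3, GC1, GC2 or GC3, 2 without PBA3 and 3 without HU1. None of the 10 passed in PBA against HU, where 2.69% of all genes tested did, and limma-voom called none. Of the 10, 3 had an unadjusted limma p under 0.05 there, beside 20.1% of all genes tested. Leaving out 1 library gave 0 to 1 calls in PBA against HU. Of 15 proliferation genes, which mark dividing tubule cells during repair, 4 were tested (Mcm5, Mcm6, Pcna and Tyms), and none passed in any comparison, nor at an unadjusted p under 0.05. Limma-voom called none of the proliferation genes in the comparisons either. Pcna had 7.50 ± 1.84 FPKM in PBA, 9.29 ± 2.45 FPKM in HU and 6.98 ± 2.13 FPKM in GC (SD, n = 3 each).

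Binding partners and relatives of the members moved in both directions. Of 21 genes 12 were tested, and in HU against GC 2 rose and 1 fell, 3 of 12 beside 10.2% of all genes. Under total reads 0 were higher and 2 lower, and the 3 calls were 0 without HU3, GC1, GC2 or GC3, 2 without PBA1, PBA2, HU1 or HU2, and 7 without PBA3. Itgb1, the integrin chain shared by receptors for osteopontin and VCAM-1, had 103 ± 27.6 FPKM in HU and 23.4 ± 6.79 FPKM in GC (SD, n = 3 each), a log2 difference of 2.10 (limma adjusted p = 0.0255). Rdx, which encodes radixin, a linker of CD44 to actin, had a log2 difference of 1.21 (limma adjusted p = 0.0426). Under total reads, Itgb1 stood at 1.05 and Rdx at 0.18 (limma adjusted p = 0.206 and 0.826). Timd2, a paralog of Havcr1 that encodes a ferritin receptor in mouse, fell to 2.84 ± 1.22 FPKM in HU, against 15.7 ± 3.42 FPKM in GC (SD, n = 3 each), a log2 difference of -2.16 (limma adjusted p = 0.0190). It rose in PBA against HU, to 14.2 ± 7.46 FPKM in PBA (SD, n = 3), a log2 difference of 1.90 (limma adjusted p = 0.0483), and without PBA3 of 2.35 (limma adjusted p = 0.00543). Left out 1 at a time, each of the other 8 libraries ended that call (limma adjusted p = 0.0685 to 0.183). It was the only one of the 12 to pass in PBA against HU, where 2.69% of all genes tested passed, and limma-voom called none there. With 1 library left out, 0 to 3 of the 12 passed in PBA against HU. Timd2 and Havcr1 are paralogs, and whether the counting divided reads between them was not tested. None of the 8 related genes called in HU against GC passed without GC1, without GC2 or without GC3, and none passed with the mitochondrial share as a covariate (limma adjusted p = 0.0867 to 0.367).

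**Figure D4:**
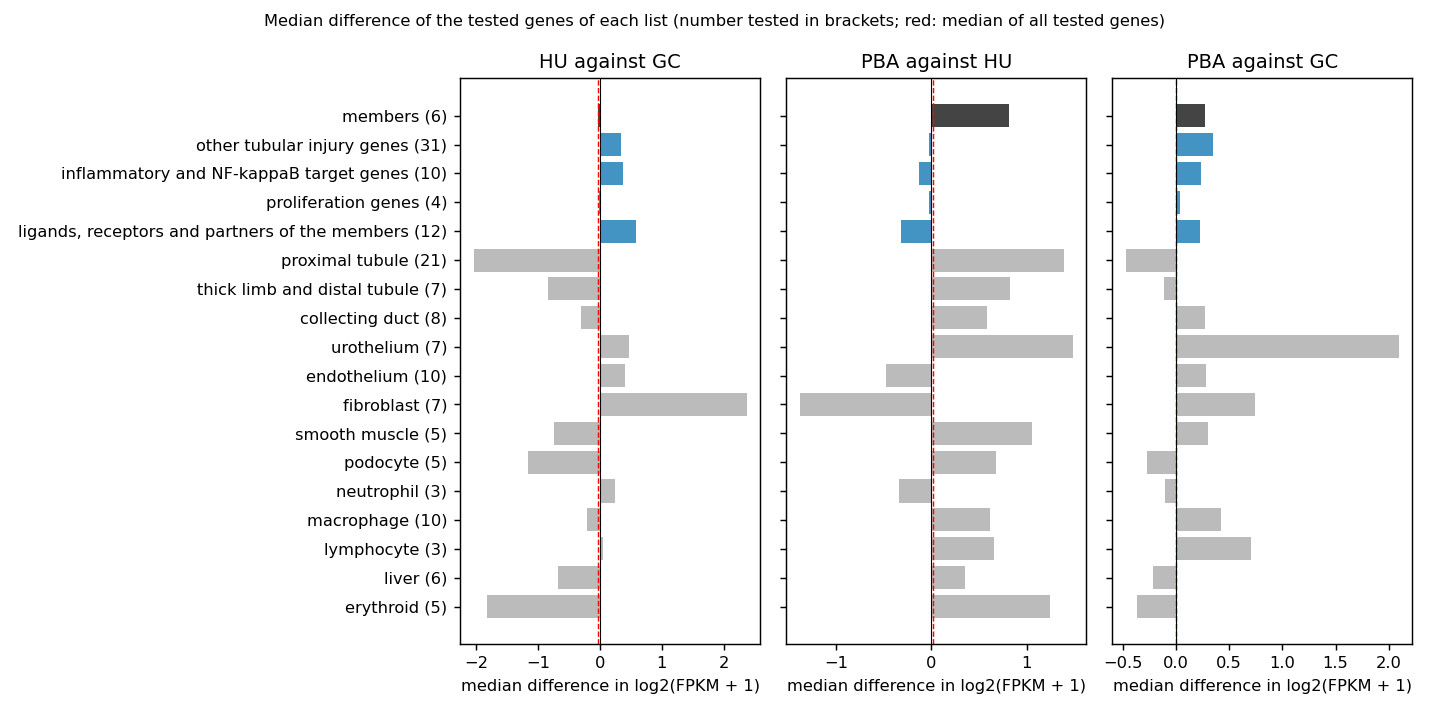
Median difference in log2(FPKM + 1) (horizontal axes) of the tested genes of each list in the 3 comparisons; bars are black for the members, blue for related genes and grey for cell type markers, with the number tested in brackets and the median of all tested genes as a dashed red line. In HU against GC the proximal tubule markers have a median of -2.04 and the fibroblast markers one of 2.37, while the members stand at -0.04.

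Markers of the cell types that could carry these transcripts differed between the libraries as well. Of 21 proximal tubule markers, 10 fell in HU against GC (median -2.04) and 2 rose in PBA against HU (median 1.39), where 10.2% and 2.69% of all genes passed. The 10 calls were 1 without GC1 or GC3, 2 without GC2, 4 without HU1, 5 without HU3 and 15 without PBA3. The 2 calls were 14 without PBA3, 3 without HU2 and 0 without any 1 of the other 7 libraries. With the mitochondrial share as a covariate, none of the 21 passed in these comparisons. The 7 fibroblast markers summed to 56.6, 13.7 and 238 FPKM in PBA1 to PBA3, 127, 278 and 236 FPKM in HU1 to HU3, and 16.3, 39.3 and 46.8 FPKM in GC1 to GC3. The HU libraries and PBA3 stood above the other 5, as they did for Vcam1. The 10 endothelial markers summed to 88.6 to 184 FPKM in PBA, 238 to 324 FPKM in HU and 80.4 to 120 FPKM in GC. Of these 10 markers, 2 rose in HU against GC, where 5.32% of all genes tested rose. Endothelium is a known source of Vcam1 in kidney, and the part of endothelial and fibroblast RNA in the difference of Vcam1 was not tested.

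Markers of the urothelium, the lining of the renal pelvis that is rich in keratins, ran with Krt18. The 8 urothelial genes summed to 91.4, 32.3 and 163 FPKM in PBA1 to PBA3, 28.8, 49.4 and 8.48 FPKM in HU1 to HU3, and 2.94, 21.2 and 2.36 FPKM in GC1 to GC3. All PBA libraries lay above all GC libraries, as for Krt18, and the highest library of each group was the same in both measures. In PBA against GC, the 7 tested urothelial genes had a median difference of 2.09, beside -0.0039 over all genes. Of the 7, 5 had an unadjusted limma p under 0.05, beside 1.31% of all genes tested, and 0 passed the threshold. These results include PBA3, which had the highest sum, and are not given without it. The part of urothelial RNA in the level of Krt18 was not tested. The 9 collecting duct markers, a segment in which Krt8 and Krt18 are also made, summed to 221 to 401 FPKM in PBA, 103 to 280 FPKM in HU and 198 to 271 FPKM in GC. Of the 8 tested, 2 fell in HU against GC, where 4.90% of all genes tested fell. They were Hsd11b2, which shields the mineralocorticoid receptor from glucocorticoids, at -3.14 and Scnn1b, a subunit of the epithelial sodium channel, at -1.91 (limma adjusted p = 0.0190 and 0.0274). Neither Hsd11b2 nor Scnn1b passed without GC1, without GC2 or without GC3, nor Scnn1b without HU3 (limma adjusted p = 0.0603 to 0.105). With the mitochondrial share as a covariate, Hsd11b2 and Scnn1b did not pass (limma adjusted p = 0.156 and 0.167).

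The 7 markers of the thick limb and distal tubule, where osteopontin and clusterin are also made, summed to 168 to 725 FPKM in PBA, 139 to 262 FPKM in HU and 305 to 504 FPKM in GC. Slc12a3, the thiazide-sensitive cotransporter of the distal convoluted tubule, fell in HU against GC, at -3.60, and rose in PBA against HU, at 3.15 (limma adjusted p = 0.00658 and 0.0146). It passed in 21 of 22 alternatives in HU against GC and in 18 of 22 in PBA against HU. With the mitochondrial share as a covariate, it passed in neither comparison (limma adjusted p = 0.0566 and 0.0634). In PBA against HU, the call also ended without PBA2, with only the 6 libraries compared and with no filter (limma adjusted p = 0.0712, 0.0872 and 0.0630). The part of these segments in the levels of the members was not tested. Neutrophils, another source of Lcn2, left few transcripts. Their 10 markers summed to 0.791 to 9.61 FPKM in PBA, 0.724 to 15.6 FPKM in HU and 1.99 to 4.22 FPKM in GC, with Mpo and Elane at 0 in all 9 libraries. Macrophages, which make osteopontin and CD44, had 10 markers that summed to 55.9 to 109 FPKM in PBA, 24.7 to 69.2 FPKM in HU and 46.7 to 64.2 FPKM in GC. None of the 10 passed in HU against GC, where 10.2% of all genes tested passed, and limma-voom called none. The smallest p of the 10 was that of Csf1r, at a log2 difference of -0.94 (limma adjusted p = 0.0637). The 11 lymphocyte markers summed to 3.86 to 18.7 FPKM in PBA, 4.57 to 17.5 FPKM in HU and 2.60 to 5.10 FPKM in GC. Cd3g, a chain of the T cell receptor complex, rose in HU against GC, with 6.08 ± 4.71 FPKM in HU and 0.173 ± 0.141 FPKM in GC (SD, n = 3 each; limma adjusted p = 0.0194). It did not pass without GC1, without GC2 or without GC3, nor with the mitochondrial share as a covariate (limma adjusted p = 0.168). Cd3g met the filter on low values only through HU, at 2.46 to 11.4 FPKM. It had 0.221 to 1.62 FPKM in PBA and at most 0.335 FPKM in GC. Trbc2, a constant segment of the T cell receptor, went the other way in HU against GC, at -1.10 (limma adjusted p = 0.103). The 3 lymphocyte markers tested had a median difference of 0.05 in HU against GC. In PBA against HU, Trbc2 passed as higher, with 1.64 to 6.49 FPKM in PBA and 0 in all HU libraries (limma adjusted p = 0.0392). That call was lost without any 1 library other than PBA3, and with the mitochondrial share as a covariate (limma adjusted p = 0.0526). Trbc2 had 0.792 to 1.81 FPKM in GC and met the filter only through PBA, where it was high. The filter thus favoured both calls, of Cd3g in HU and of Trbc2 in PBA. The 8 liver markers summed to 29.4 to 118 FPKM in PBA, 16.4 to 114 FPKM in HU and 68.4 to 126 FPKM in GC. Of the 6 tested, 1 had a positive difference in HU against GC (median -0.68) and 5 in PBA against HU (median 0.35). Against the direction of the others, Alb, the gene of serum albumin, rose in HU against GC and fell in PBA against HU (limma adjusted p = 0.0322 and 0.0479). It had 0.822 to 1.21 FPKM in PBA, 4.34 to 42.6 FPKM in HU and 1.03 to 1.62 FPKM in GC. Leaving out PBA1, HU2, GC1, GC2 or GC3 ended both calls of Alb, and leaving out PBA2 ended that in PBA against HU. Both were also lost with the mitochondrial share as a covariate (limma adjusted p = 0.156 and 0.127).

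The genes nearest to each member were found among 10927 protein-coding genes by the mean absolute difference of log2(FPKM + 1), centred on each gene, over the 9 libraries. Vcam1 lay nearest to Rab31, which encodes a small GTPase of vesicle transport, at 0.0920, and Rab31 had 2.56, 2.32 and 7.36 FPKM in PBA1 to PBA3, 7.82, 10.4 and 8.16 FPKM in HU1 to HU3, and 1.60, 1.85 and 3.21 FPKM in GC1 to GC3. The next was Zbp1, a sensor of Z-form nucleic acids, at 0.138. Spp1 lay nearest to Slc17a5, the lysosomal sialic acid transporter, at 0.141, and Ggt6 at 0.187. Slc17a5 averaged 8.04 FPKM in PBA, 3.37 FPKM in HU and 8.83 FPKM in GC.

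Krt8 lay nearest to Fam20c, a kinase of secreted proteins that include osteopontin, at 0.0714, and Dis3l2 at 0.120. Fam20c averaged 4.89 FPKM in PBA, 2.42 FPKM in HU and 3.97 FPKM in GC. Krt18 lay nearest to Thy1, a surface glycoprotein of thymocytes and fibroblasts, at 0.176, and Gsdmc2, an epithelial gasdermin, at 0.244. Thy1 had 2.23, 1.46 and 9.10 FPKM in PBA1 to PBA3, and 0.738 to 2.04 FPKM in HU and 0.343 to 0.549 FPKM in GC. Clu lay nearest to Marc2, a mitochondrial amidoxime reductase, at 0.236, and to Slc46a1, the proton-coupled folate transporter, at 0.278. Marc2 had 25.1, 33.3 and 7.57 FPKM in PBA1 to PBA3, against 4.94 to 7.71 FPKM in HU and 23.5 to 32.5 FPKM in GC, and PBA3 thus stood with HU as it did for Clu. Lcn2 lay nearest to Eif4ebp1, a repressor of translation initiation, at 0.110, and Cd59b at 0.142. The 2 keratins shared no gene among their nearest, and the distances of Clu and Krt18 were larger than those of Krt8 and Vcam1.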

How the data were processed

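Kidney messenger RNA was captured on poly-T beads and sequenced from both ends with a strand-keeping kit, per the labels' protocols. The tools were CASAVA, cutadapt and HISAT2 and the genome was mm10, per the submitters' processing notes. For tool versions and read counting, nothing is given in the sources used here. A table was deposited by the authors, with 1 value per gene and library and a header that names no unit. The values behaved as FPKM: each deposited value times gene length and divided by a constant of the library gave whole reads for 99.96% to 100% of values (tolerance 0.01 reads). These reads gave the depths and, in libraries at 0, a floor of 3 reads.

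The members and all lists were chosen with earlier results of these data known. Differences were tested with limma 3.58.1 in R 4.3.3 on log2(FPKM + 1), with a trended empirical Bayes fit of all 9 libraries in 3 groups, for 12642 genes with at least 1 FPKM in at least 3 libraries. The p-values were Benjamini-Hochberg adjusted over those genes (threshold 0.05). The 3 low members were taken from the same fit without the filter. All 9 libraries were kept, as no pair within a group agreed within sampling noise (chi-square per degree of freedom 27.5 to 504). Coordinates are those of the deposited table, and those of the members are the same in GENCODE mouse release 21. Genes named beside the members are, in each list, up to 4 of the largest differences past the threshold or else the smallest p, and for each tested member its 2 nearest protein-coding genes.

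Alternatives were 3 other scalings (total reads, reads outside the mitochondrial genome, TMM factors), no filter, pseudocounts of 0.1 and 4, limma-voom on recovered reads, only the 6 libraries compared, a replicate block, library weights, the mitochondrial share as a covariate, protein-coding genes only, each library left out and both PBA3 and GC3 left out. The code was tested on simulated data. Figures used Python 3.11.15 and matplotlib 3.10.9. No set test was run.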

Additional observations from a re-analysis of the deposited data

How the results depend on the processing

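Over 22 alternatives, Clu in HU against GC ranged from -3.36 to -0.96 and passed in 15 (limma adjusted p from 0.00056 to 0.275), and Vcam1 ranged from 0.42 to 2.42 and passed in 8 (0.00156 to 0.480). The 6 tested members kept their direction in HU against GC except Lcn2 and Krt18, which were -0.17 and -0.66 with scaling by total reads and -0.050 and -0.39 with the mitochondrial share as a covariate. Havcr1 turned to -0.14 with scaling by total reads, and to 0.11 in PBA against HU. In PBA against HU, Lcn2 turned to 0.36 and 0.25 under those settings, Vcam1 turned to 0.14 with the covariate, and leaving out single libraries gave Lcn2 values from -0.41 to 0.090. In PBA against GC, leaving out single libraries gave Spp1 values from -0.079 to 0.33, Lcn2 from -1.8e-05 to 0.50, Clu from -0.87 to 0.19 and Vcam1 from 0.12 to 1.01, and Lcn2 was -0.042 without PBA3 and GC3. The cause was not tested.

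The 2 members called in HU against GC were Clu and Spp1 with scaling by total reads. They became 1 with TMM factors, with a pseudocount of 0.1, with a pseudocount of 4 and with the replicate block, 0 with no filter and with the covariate, 4 with library weights (Spp1 and Krt8 added), and 0 to 2 when 1 library was left out. The 0 called in PBA against HU became 4 with library weights, 2 without PBA3 and GC3, and 0 to 2 when 1 library was left out. Over all genes, the 1292 calls of HU against GC were 2273 with scaling by total reads (242 higher, 2031 lower, in place of 672 and 620), 238 with no filter, 3983 with library weights, 99 with the covariate and 69 to 2360 when 1 library was left out. The calls were 1011 higher and 478 lower when scaled to non-mitochondrial reads (median 0.18), 536 and 798 with TMM factors (median -0.17) and 845 and 479 with limma-voom. They numbered 69 without GC1, 230 without GC2, 126 without GC3, 669 without HU3 and 2360 without PBA3. The 340 calls of PBA against HU (147 higher, 193 lower) were 650 with scaling by total reads (554 higher, 96 lower, median 0.71), 17 with no filter, 145 with a pseudocount of 0.1, 17 with only the 6 libraries compared, 2045 with library weights, 121 with the covariate, 200 with protein-coding genes only, 1118 without PBA3 and GC3, and 36 to 1320 when 1 library was left out. They were 140 higher and 316 lower when scaled to non-mitochondrial reads (median -0.12) and 202 and 176 with TMM factors (median 0.13). PBA against GC had 0 calls under all 22.

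Not every pair of libraries that share a replicate number deviated together (correlations of deviations from -0.196 to 0.288, above 0.1 only for numbers 1 and 3 in PBA against GC), so the numbers were not taken as pairs. With the replicate block, PBA against HU had 137 calls, and Vcam1 in HU against GC had a limma adjusted p of 0.0544. Reads per gene limit Havcr1, Lcn2, Sox9 and Cd44, which had at most 94 in any library.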

Other observations

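Some related genes outside the members differed in mean between treated mice and another group, in either direction, and varied between libraries. S100a6, a calcium-binding protein of spreading epithelial cells, averaged 57.8 ± 48.3 FPKM in PBA and 11.7 ± 8.90 FPKM in GC (SD, n = 3 each), a log2 difference of 2.07 (limma adjusted p = 1). Krt19, a keratin of ducts and urothelium, averaged 11.1 ± 9.08 FPKM in PBA and 2.12 ± 1.64 FPKM in GC (SD, n = 3 each), a log2 difference of 1.84 (limma adjusted p = 1). Ccl5, a T cell chemokine, averaged 3.75 ± 3.11 FPKM in PBA and 0.530 ± 0.476 FPKM in HU (SD, n = 3 each), a log2 difference of 1.47 (limma adjusted p = 0.153). Cyr61, a matrix protein that responds to stretch and injury, averaged 3.29 ± 3.82 FPKM in PBA and 14.6 ± 3.05 FPKM in HU (SD, n = 3 each), a log2 difference of -2.31 (limma adjusted p = 0.0919). Lgals3, which encodes galectin-3, averaged 29.2 ± 7.94 FPKM in PBA and 13.6 ± 8.19 FPKM in HU (SD, n = 3 each), a log2 difference of 1.16 (limma adjusted p = 0.135). None of these differences passed the threshold. All of them include PBA3, and fits without it are not given for these genes.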
